A study of Mus musculus with 16 samples.

Results

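FB4 is 1 of the 10 fibroblast (FB) subclusters that the authors' deposited cell table assigns in single cells of the mouse left ventricle. Its members are the 376 cells whose subcluster entry is FB4, out of 1775 FB cells (21.2%) and 11492 cells in all. Hearts came from 16 male mice in a model of pressure overload, TAC (transverse aortic constriction), where narrowing the aorta forces the left ventricle to work against a raised load. Stage is labelled by week: 0w (2 mice), 2w (2 mice), 5w (7 mice), 8w (3 mice) and 11w (2 mice). Whether surgery was done on the 0w animals is not stated, nor are strain, genotype and age. Tissue slices of all groups were digested by 1 of 2 protocols, protease XXIV with collagenase II for myocytes or a papain enzyme for the other cells, and polyadenylated RNA was sequenced per cell with unique molecular identifiers (UMIs), tags that let each captured molecule be counted once.

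Cardiac fibroblasts make and turn over the collagen network between the muscle cells. Under pressure load a part of them is known to leave the resting state and to secrete matrix and matricellular proteins such as periostin (Postn), and some take on contractile genes as myofibroblasts. Resting fibroblasts of the mouse heart are known for genes such as Tcf21, a transcription factor of the fibroblast lineage, Gsn (gelsolin, which severs actin) and Dcn (decorin, a small proteoglycan that binds collagen). They can also release chemokines such as Ccl2 and Ccl7, which attract monocytes.

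FB4 cells were found in 12 of 16 mice. Their number in each mouse was 35 and 34 at 0w, 39 and 9 at 2w, 133, 1 and 5 at 5w (replicates 1 to 3), 72, 10 and 4 at 8w, and 26 and 8 at 11w. The other 4 mice, 5w replicates 4 to 7, held 0 FB4 cells among only 3 to 8 FB cells each. The 7 mice with at least 10 FB4 cells held 349 of them, and the comparisons across genes rest on these mice. The median FB4 cell held 48946.5 UMIs (2391 to 523364) and 1743 detected genes (585 to 4766, by the authors' count), with 23.6% of its UMIs from mitochondrially encoded genes. Summed over cells, FB4 of these 7 mice gave 205753 to 9943354 UMIs, with the shallowest in 8w replicate 2 (205753 UMIs, 10 cells) and 11w replicate 1 (214039 UMIs, 26 cells). Of the cell names, 0 were held by more than 1 mouse. Nothing states that the mice of a stage were processed apart, so p-values rest on the spread between these mice, which may be technical in part. With 1 coefficient per stage, that spread is estimated from the mice of 0w and of 8w alone. The stages 2w, 5w and 11w gave 1 mouse each to the fits and add nothing to it. With only 2 residual degrees of freedom, the fit draws the spread of each gene toward that of all genes. A small p-value or standard error therefore does not show that a gene itself varied little between mice.

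The fibroblast label held in the RNA. In CPM, UMIs scaled to a common total of non-mitochondrial UMIs, FB4 had 278 CPM of Pdgfra, the PDGF receptor that marks fibroblasts, against 39.1 CPM in endothelial cells (EC) and 29.3 CPM in cardiomyocytes (CM). Dcn stood at 19783 CPM in FB4, against 1635 CPM in EC and 1086 CPM in CM. Col1a1, a chain of type I collagen, stood at 319 CPM in FB4, against 95.3 CPM in EC and 55.1 CPM in CM. Of the 376 cells, 148 had a UMI of all 3 genes, 164 of 2 and 64 of 1, and 0 lacked them all.

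The share of FB4 among a mouse's fibroblasts ranged widely within stages. Among the 12 mice with at least 20 FB cells it was 29.2% and 24.8% at 0w, 24.4% and 9.09% at 2w, 61.0%, 3.45% and 11.6% at 5w, 52.6%, 11.5% and 6.15% at 8w, and 8.07% and 2.37% at 11w. The high shares belonged to 1 mouse at 5w and 1 at 8w, 5w replicate 1 and 8w replicate 1. The mice of 8w and 11w averaged 16.1% ± 20.6 (SD, n = 5) and those of 0w and 2w 21.9% ± 8.78 (SD, n = 4), a difference of -5.73 percentage points, with a pooled SD of 15.9 points. Most of the late spread came from 8w replicate 1: without it the other late mice had 2.37% to 11.5%, against 9.09% to 29.2% in early mice, and the difference was -14.8 points. As a share of all annotated cells other than cardiomyocytes, the late minus early difference turned sign, to 1.31 points.

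**Figure D1:**
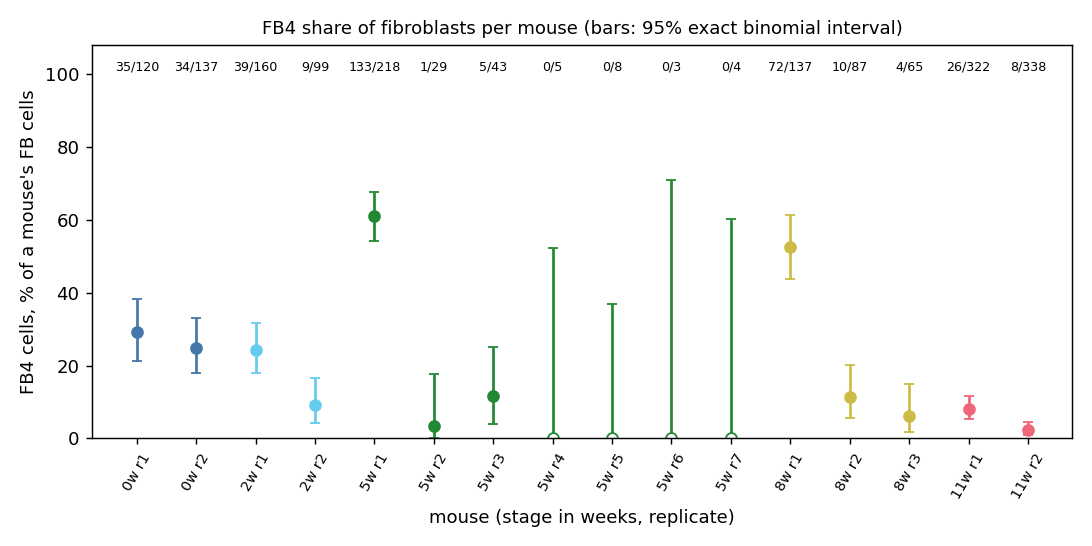
Share of FB4 among the FB cells of each mouse, in percent, with the exact 95% binomial interval as a bar; mice are ordered by stage, the numbers above give FB4 cells over FB cells, and open circles are mice with fewer than 20 FB cells. The mice 5w replicate 1 (61.0%) and 8w replicate 1 (52.6%) lie above all others with at least 20 FB cells, which reach 29.2% at most.

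These high shares came from the same plate, a label that the cell table gives to each cell. It places FB4 on 6 of 12 plates, and the plate shared by 5w replicate 1 and 8w replicate 1 held 205 FB4 cells (54.5% of the subcluster), where FB4 made up 57.7% of the fibroblasts. On the other 5 plates FB4 made up 8.15% to 29.1% of the fibroblasts. Within the shared plate, 8w replicate 1 had 52.6% and 5w replicate 1 had 61.0%. No plate held FB4 cells of both a late (8w or 11w) and an early (0w or 2w) mouse, so plate and stage cannot be told apart for the share of FB4.

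Against the other fibroblasts of the same mouse, FB4 carried more RNA of resting fibroblast genes and, on average, less Postn. The authors drew the subclusters from these same cells, so what follows is a description and has no test. Differences are log2 of CPM scaled by the trimmed mean of M values (TMM), FB4 minus the other FB of that mouse. The 20 genes of a resting fibroblast list, all measured, summed to 19983 to 24198 CPM in FB4 of the 7 mice (median 21436) and to 10339 to 16812 CPM in their other FB (median 15908), so the ranges did not overlap. Gsn weighs most in these sums, at 12289 CPM over all FB4 cells, and its difference shrank with thinned cells, as given below. The sums were not taken with thinned cells. Of the 20 genes, 5 were higher in FB4 in each of the 7 mice (Apod, Dpep1, Fmo2, Gsn and Hsd11b1), against 0.23% of all 16540 genes of the joint fit. A positive mean difference was found in 16 of the 20, and in 4084 of all 16540 genes. The median difference over the list was 0.37 on the log2 scale, and the median over all genes was -0.55.

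Hsd11b1, whose product regenerates active glucocorticoid, was the clearest of these and the one gene of the resting list that the naming rule also picked. It averaged 422 CPM in FB4 and 173 CPM in the other FB, a log2 difference of 1.67 ± 0.79 (SD, n = 7 mice), and the gap ran from 0.63 in 0w replicate 1 to 2.75 in 8w replicate 1. Apod, a lipid-carrying lipocalin, averaged 636 CPM in FB4 and 261 CPM in the other FB (log2 difference 1.31 ± 0.73). Dpep1, a membrane dipeptidase, averaged 837 CPM in FB4 and 460 CPM in the other FB (0.94 ± 0.66). Fmo2, a flavin monooxygenase, averaged 250 CPM in FB4 and 145 CPM in the other FB (1.00 ± 1.01). All 4 genes were higher in FB4 of every one of the 7 mice, with the widest gaps in the shallow sum of 8w replicate 2 for Apod, Dpep1 and Fmo2.

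Gsn, of this list, and Dcn, which is in the list of general fibroblast markers instead, differed by less. Gsn averaged 7416 CPM in FB4 and 5610 CPM in the other FB, a log2 difference of 0.40 ± 0.11 (SD, n = 7), and Dcn averaged 13634 CPM in FB4 and 9831 CPM in the other FB, 0.47 ± 0.17. With each cell thinned to 2000 non-mitochondrial UMIs, so that every cell weighs the same, these differences shrank to 0.04 for Gsn and 0.12 for Dcn, while Hsd11b1 stood at 1.04 and Apod at 0.73. Inmt, a methyltransferase of small amines, was higher in FB4 of 6 mice and lower in 0w replicate 1 (log2 difference 1.64 ± 1.95). Tcf21 averaged 97.3 CPM in FB4 and 63.5 CPM in the other FB but was higher in only 3 of 7 mice.

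Of 2996 genes with an average of at least 5 on the log2 CPM scale, 29 were higher in FB4 of every mouse (0.968%) and 61 lower (2.04%). This split moved with the scaling, to 46 higher and 43 lower with relative log expression (RLE) factors in place of TMM, and to 6 higher and 123 lower with thinned cells. The following were picked from them after their values were seen. Serping1, the inhibitor of the first complement component, averaged 2305 CPM in FB4 and 1551 CPM in the other FB (log2 difference 0.56 ± 0.35, SD, n = 7). Serpina3n, a secreted serine protease inhibitor, averaged 315 CPM in FB4 and 167 CPM in the other FB (0.89 ± 0.43). Lama2, the laminin chain of muscle basement membrane, averaged 435 CPM in FB4 and 236 CPM in the other FB (0.76 ± 0.58), Nid1 (nidogen, which links laminin to type IV collagen) 514 CPM in FB4 and 328 CPM in the other FB (0.62 ± 0.40), and the sodium channel gene Scn7a 357 CPM in FB4 and 228 CPM in the other FB (0.55 ± 0.36). The interferon-inducible gene Ifitm3 averaged 3449 CPM in FB4 and 2645 CPM in the other FB (0.39 ± 0.16). For Nid1 the sign turned when cells were thinned (-0.14).

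The complement genes, 10 of 11 measured, summed higher in FB4 in 7 of 7 mice (5133 to 12154 CPM in FB4, 4059 to 7524 CPM in the other FB), although the median gene difference was -0.03 and 1 gene, Serping1, was higher in every mouse. Of the 17 collagen genes, 8 had a positive mean difference, none lay on 1 side in all mice, and the median was -0.10. Their sum was higher in FB4 in 6 of 7 mice, so sum and median differed in sign. The same held for 7 general fibroblast markers, with a higher sum in 7 of 7 mice and a median of -0.14. Col1a1 differed by 0.31 ± 0.53, Col3a1 by -0.17 ± 0.94, Pdgfra by -0.14 ± 0.76 and Pi16, a marker of adventitial fibroblasts, by 0.04 ± 0.42 (log2 FB4 minus other FB, SD, n = 7), all with both signs among the mice.

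Of the matricellular genes, Postn and Cilp were lower on average. Postn averaged 89.9 CPM in FB4 and 446 CPM in the other FB, a log2 difference of -1.81 ± 1.65 (SD, n = 7), lower in 6 of 7 mice and higher in 8w replicate 1. Cilp, a matrix protein of stressed hearts, averaged 118 CPM in FB4 and 275 CPM in the other FB (-0.85 ± 1.12), lower in 5 of 7 mice. Of 15 measured matricellular and remodelling genes, 2 had a positive mean difference, as had 4084 of all 16540 genes, and the median was -0.85, against -0.55 over all genes. Of the 15, 0 were lower in every mouse, against 3.08% of all genes. Thbs4 and Comp, secreted thrombospondin family proteins, came to 10 and 14 UMIs in all 376 FB4 cells, against 4364 and 4715 UMIs in the 1399 other FB cells.

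**Figure D2:**
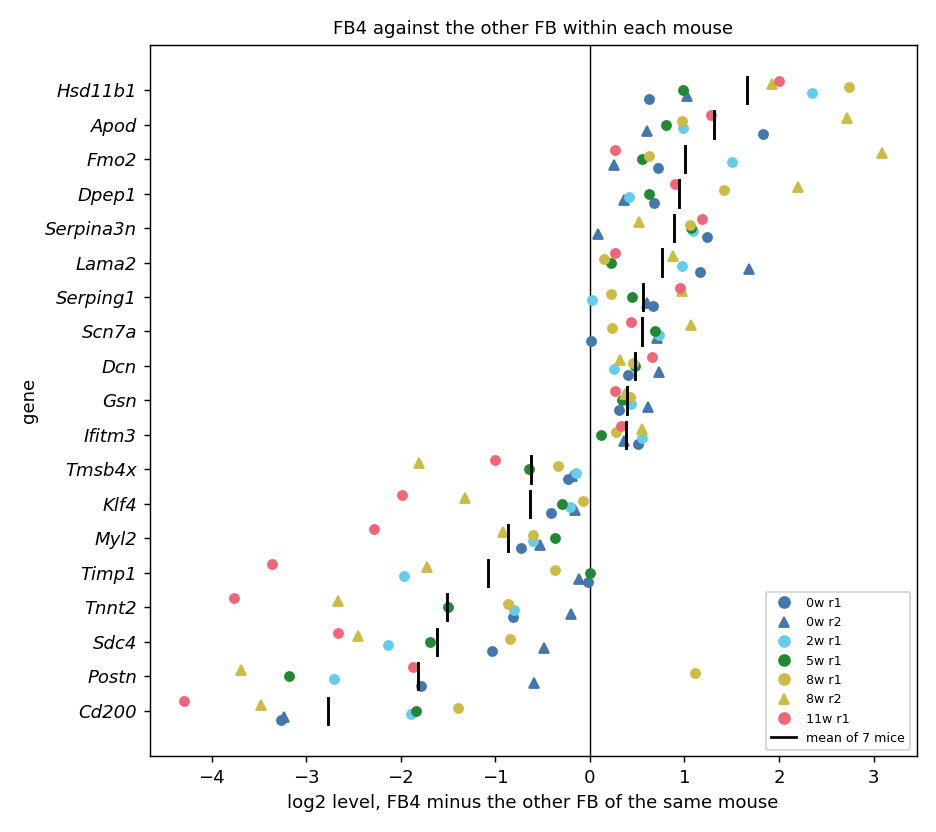
Difference of the log2 level between FB4 and the other FB of the same mouse, on TMM-scaled CPM, for 19 genes; each point is 1 mouse, coloured by stage, and the black line is the mean of the 7 mice. Hsd11b1 lies above 0 in each mouse (0.63 to 2.75), Cd200 lies below 0 in each (mean -2.77), and Postn lies below 0 in 6 of 7.

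Cells were also counted at equal depth. Of the FB4 cells thinned to 2000 UMIs, 10.4% (95% exact binomial interval 7.48 to 13.9) had a Postn UMI, against 35.9% (32.9 to 39.0) of 994 other FB cells of the same plates and 6.65% of 1610 EC. The EC serve as a rough background for fibroblast genes. Whether their UMIs are free RNA, doublets or their own RNA was not tested. Cilp was seen in 8.24% of FB4 cells, 26.5% of other FB cells and 2.11% of EC. Comp was seen in 0.532% of FB4 cells and 11.0% of other FB cells, and Thbs4 in 0 of 376 FB4 cells, which allows a share of up to 0.798% of cells with a UMI when the limit is set at 3 cells (the exact 95% interval reaches 0.976%), and in 6.34% of other FB cells. Both FB4 shares lie at or below those of EC (0.994% and 0.435%), as does that of Meox1, a transcription factor of activated fibroblasts (2.93% of FB4 cells, 11.4% of other FB cells, 2.98% of EC). Hsd11b1 was seen in 32.4% of FB4 cells (27.7 to 37.4), 15.5% of other FB cells (13.3 to 17.9) and 4.91% of EC. Inmt was seen in 25.0% of FB4 cells (20.7 to 29.7), 6.14% of other FB cells (4.73 to 7.81) and 1.55% of EC. Without thinning, Postn was seen in 79 of the 376 FB4 cells and 49.9% of the other FB cells, and Hsd11b1 in 53.5% of FB4 cells and 28.8% of the other FB cells. Median depth before thinning was 33998 non-mitochondrial UMIs in FB4, 16073 in these other FB and 17087 in the EC, and the intervals cover counting error over cells only, not the spread between mice. Cells were pooled over mice, which weigh differently in FB4 and in the other FB. The plate shared by 5w replicate 1 and 8w replicate 1 held 205 FB4 cells among 355 FB cells, and the 11w plate 34 among 417. Subcluster, mouse, stage and plate are therefore mixed in these shares.

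Smooth muscle actin (Acta2) and the cycling gene Mki67 gave few UMIs. FB4 held 154 Acta2 UMIs in 20 cells, of which 58 were in 1 cell, and 45 Mki67 UMIs in 16 cells. Wif1, a secreted Wnt inhibitor, came to 2 UMIs. Of 15 measured myofibroblast genes, 2 had a positive mean difference (median -0.69, against -0.55 over all genes) and 0 were lower in every mouse, and Meox1 averaged 22.5 CPM in FB4 and 59.5 CPM in the other FB, lower in 4 of 7 mice.

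Several genes lower in FB4 of every mouse are known from other cell types. Of 8 cardiomyocyte markers, 4 were lower in each mouse, against 3.08% of all genes of the joint fit, and their sum was 482 to 2498 CPM in FB4 (median 2092) and 2333 to 4426 CPM in the other FB (median 3610), lower in FB4 of all 7 mice. The light chain gene Myl2 averaged 396 CPM in FB4 and 661 CPM in the other FB, Tnnt2 (troponin T) 194 CPM in FB4 and 419 CPM in the other FB, and Actc1 (cardiac actin) 151 CPM in FB4 and 313 CPM in the other FB. Within plates, Tnnt2 differed by -0.62, Myl2 by -0.017 and Actc1 by 0.0033 on the log2 scale. Summed by subcluster, none of these 3 genes was lowest in FB4. Myl2 stood at 585 CPM in FB4, 597 CPM in FB1, 340 CPM in FB2 and 319 CPM in FB3, but at 7899 CPM in FB8. Tnnt2 stood at 270 CPM in FB4, 209 CPM in FB1, 271 CPM in FB2 and 189 CPM in FB3, but at 4872 CPM in FB8. Actc1 was higher in FB4 (226 CPM) than in FB1 (199 CPM), FB2 (133 CPM) and FB3 (189 CPM). The erythroid gene Hba-a1 was also lower in every mouse. Mesothelial markers summed to at most 33.9 CPM in FB4 and to 32.6 to 540 CPM in the other FB, with Krt8 and Muc16 at 0 in FB4, and 3 of 10 were lower in every mouse. These are genes of the FB9 subcluster, where Msln reached 1206 CPM. Whether RNA of other cell types takes a part in the FB4 differences was not tested.

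Among the other genes lower in every mouse, Cd200, a surface glycoprotein that restrains myeloid cells, averaged 36.1 CPM in FB4 and 167 CPM in the other FB, a log2 difference of -2.77 ± 1.06 (SD, n = 7) and lower in 7 of 7 mice. The difference was -2.17 with thinned cells and -2.00 within plates. Timp1, an inhibitor of matrix proteases, averaged 60.8 CPM in FB4 and 218 CPM in the other FB (-1.08 ± 1.30), but in 0w replicate 1 and 5w replicate 1 the difference was near 0. Sdc4, a heparan sulfate proteoglycan, differed by -1.61 ± 0.85, Tmsb4x, which binds actin monomers, by -0.62 ± 0.61, and the transcription factor gene Klf4 by -0.64 ± 0.73, each lower in 7 of 7 mice. Summed by subcluster, none of these genes was lowest in FB4. Cd200 stood at 105 CPM in FB4 and was lower in FB2 (55.3 CPM), FB5 (63.2 CPM) and FB8 (84.9 CPM). Timp1 stood at 54.6 CPM in FB4 and at 27.1 CPM in FB1. Cd200 and Tmsb4x were highest in FB1 (693 and 2236 CPM), the subcluster with the highest level of the endothelial genes Fabp4 (2624 CPM, 416 CPM in FB4) and Cdh5 (327 CPM, 65.7 CPM in FB4). The 8 endothelial markers summed to 177 to 1400 CPM in FB4 and to 466 to 2810 CPM in the other FB, lower in FB4 of 5 of 7 mice, and their part in these differences was not tested. Cd200, Timp1, Sdc4, Tmsb4x and Klf4 were chosen after their values were seen.

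The genes with the largest mean differences were, in contrast, mostly rare and rested on few cells. By size alone the highest were Wdr44, Zfp839, Ncald, C1qtnf6, Ifitm1, Pcdh18, Cyp27a1, Sept4, Vps53, Fam111a, Ddx41, Serpinb9, Pank3, Hsd11b1 and Srpx, with log2 differences of 1.66 (Srpx) to 2.42 (Wdr44). Of these only Hsd11b1 was higher in all 7 mice. Zfp839 came to 533 UMIs in 10 FB4 cells, of which 41.8% were in 1 cell. The lowest were Clu, Ptov1, Hsd17b12, Lsmd1, Zfp260, Ss18, Chmp2b, Eno3, Igfbp5 and Epc2, with differences of -3.77 (Clu) to -3.04 (Epc2). Igfbp5, Ptov1 and Ss18 were lower in all 7 mice. Clu, a secreted chaperone, averaged 7.64 CPM in FB4 and 64.1 CPM in the other FB and was higher in 8w replicate 1.

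Set beside each other subcluster, FB4 had the highest level of Hsd11b1 (582 CPM, next FB6 at 369 CPM), Inmt (571 CPM, next FB10 at 300.5 CPM), Apod (959 CPM, next FB10 at 896 CPM), Dpep1 (1105 CPM, next FB10 at 873 CPM) and Tcf21 (165 CPM, next FB6 at 148 CPM). Dcn, Serping1, Lama2 and Ifitm3 were also highest in FB4. Other genes named above as higher in every mouse were not. Gsn (12404 CPM, 12289 CPM in FB4), Nid1 (1126 CPM, 717 CPM in FB4) and Scn7a (526 CPM, 449 CPM in FB4) were higher in FB5. Fmo2 was higher in FB10 (711 CPM, 316 CPM in FB4) and Serpina3n in FB6 (735 CPM, 237 CPM in FB4), among others. It had the lowest level of Postn (74.5 CPM), next to FB9 (74.7 CPM) and far under FB3 (2158 CPM), FB6 (1623 CPM) and FB7 (1397 CPM). Cilp stood at 126 CPM in FB4, with FB9 alone lower (4.39 CPM), FB1 next above (132 CPM) and FB3 highest (916 CPM). The levels are sums over all cells of a subcluster and come from different mice, FB7 from only 2 and FB10 from only 3, and the median depth of FB7 and FB10 was 2348 and 2014 non-mitochondrial UMIs per cell.

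**Figure D3:**
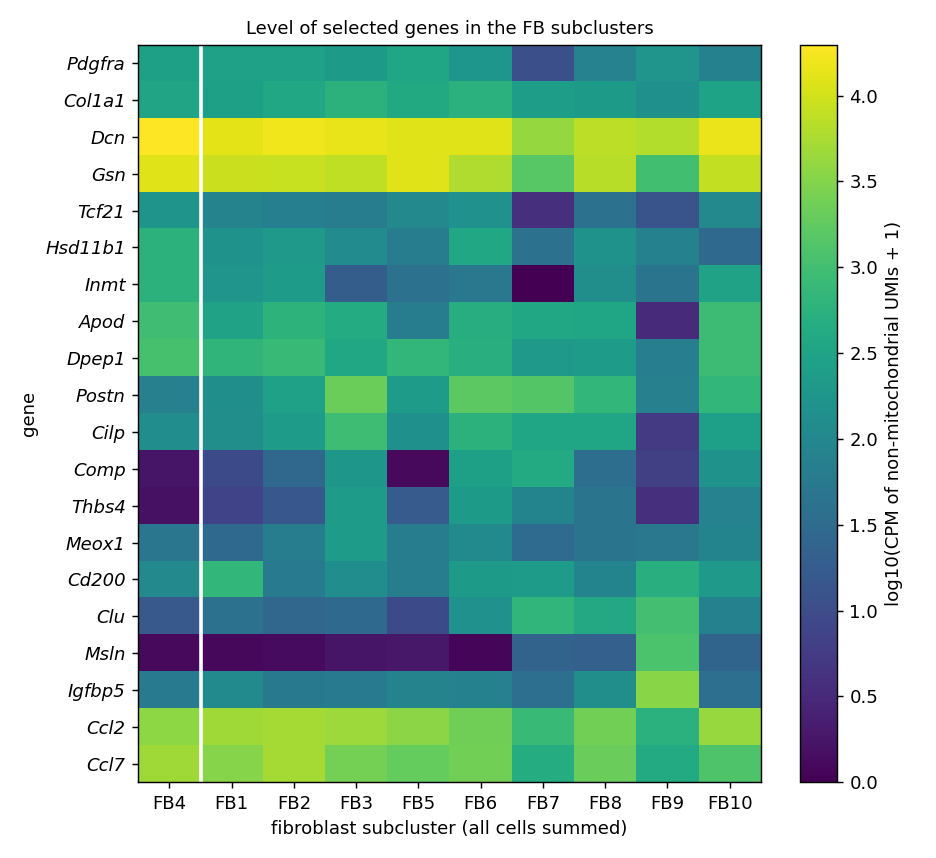
Level of 20 genes in FB4 (left of the white line) and in the 9 other FB subclusters, as log10 of CPM of non-mitochondrial UMIs plus 1, all cells of a subcluster summed. FB4 has the highest Hsd11b1 (582 CPM) and Inmt (571 CPM) and the lowest Postn (74.5 CPM) and Thbs4, while Msln and Igfbp5 mark FB9.

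Across 2996 genes and within mice that held at least 10 cells of both subclusters, FB4 was most like FB1 and FB2. The mean Spearman correlation of levels was 0.533 with FB1 (5 mice, 0.370 to 0.662) and 0.533 with FB2 (7 mice, 0.373 to 0.699), 0.504 with FB3 (3 mice) and 0.370 with FB8 (2 mice). These correlations are across genes, which are not independent replicates. Each pair shares a mouse, but its cells were not matched by plate. The order of FB1, FB2 and FB3 lies within the spread between mice.

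FB4 cells also differed among themselves. Dcn was found in all 376 cells and Gsn in all but 2, with quartiles of 12477 and 25116 CPM for Dcn. Apod had a UMI in 209 cells and Hsd11b1 in 201. Ccl2 was missing in 98 cells, had a median of 90.8 CPM and reached 89722 CPM in 1 cell, and Ccl7 was missing in 63 cells, with a median of 153 CPM and quartiles of 34.1 and 2551 CPM. Of the 68783 Ccl2 UMIs of FB4, 26.5% were in 1 cell. Postn was missing in 297 cells.

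The first comparison over time asked how FB4 of late disease (8w and 11w, 3 mice) differed from FB4 of the early stages (0w and 2w, 3 mice). No plate held FB4 cells of both groups, so plate and stage cannot be told apart in it. Stages had equal weight within a group, so 11w replicate 1 counted as much as both 8w mice, and 2w replicate 1 as much as both 0w mice. By edgeR's quasi-likelihood test on UMI sums per mouse, 15 of 12939 genes passed a Benjamini-Hochberg adjusted p of 0.05 (0.116%), and all 15 were lower in late FB4. They were 3 haemoglobin genes, 8 mitochondrially encoded genes, the predicted genes Gm13340 and Gm13341, and the chemokines Ccl2 and Ccl7. At an unadjusted p under 0.05 there were 450. DESeq2 passed 25 genes, 0 of them shared with these, and with mice of at least 5 FB4 cells the quasi-likelihood test passed 0. The median gene stood at -0.64 (log2, late minus early), or -0.41 with RLE factors, so a fall is to be read against that shift. In bulk sums of this kind, fewer expressing cells and less RNA per cell cannot be told apart.

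Hba-a1, an alpha-globin gene of red blood cells, had 526, 268 and 1660 CPM in late FB4 (8w replicates 1 and 2 and 11w replicate 1), against 2976, 3842 and 17371 CPM in early FB4 (0w replicates 1 and 2 and 2w replicate 1). The groups did not overlap. The log2 difference was -3.24 ± 0.37 (SE; edgeR quasi-likelihood adjusted p = 9.04e-15). The highest value was that of 2w replicate 1. Hbb-bs, a beta-globin gene, fell by 2.49 ± 0.41 (adjusted p = 1.35e-06 by the same test). Hba-a2 fell by 2.47 ± 0.42 (adjusted p = 3.86e-06), and it shares near-identical sequence with Hba-a1, so the split of reads between these copies is uncertain. Leaving out 0w replicate 2 ended the calls of Hbb-bs (adjusted p = 0.0643) and Hba-a2 (0.14), and leaving out 2w replicate 1 ended that of Hbb-bs (-1.49, adjusted p = 0.52).

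Erythroid RNA varied in the same mice outside FB4. The erythroid list summed to 2480, 2764 and 6847 CPM in late FB4, against 10170, 13580 and 36060 CPM in early FB4. In the other FB of those mice it summed to 31926, 2033 and 15140 CPM in late disease, against 13097, 31337 and 45576 CPM early. Its part in the haemoglobin result was not tested.

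Mitochondrial transcripts were the other large group. The mitochondrial ribosomal RNA gene mt-Rnr2 had 161607, 66364 and 43172 CPM in late FB4, against 195486, 190320 and 207528 CPM in early FB4, so the groups did not overlap (log2 difference -1.51 ± 0.18, edgeR quasi-likelihood adjusted p = 2.22e-08). Of the genes for respiratory chain subunits, mt-Nd4 differed most (-1.88 ± 0.24, adjusted p = 9.82e-08) and mt-Co1 least (-1.36 ± 0.28, adjusted p = 0.00101). Both low values came from the shallow sums of 8w replicate 2 and 11w replicate 1, and without 11w replicate 1 the difference of mt-Rnr2 was -0.76 (adjusted p = 0.0626).

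The share of mitochondrial UMIs followed the same mice. In FB4 it was 38.7% and 37.1% at 0w, 38.4% in 2w replicate 1, 16.5% in 5w replicate 1, 35.6% and 20.3% at 8w and 15.6% in 11w replicate 1. In the other FB of these mice it was 41.3% and 33.0% (0w), 37.3% (2w), 14.9% (5w), 33.1% and 26.2% (8w) and 55.5% (11w). FB4 and the other FB thus lay within 6 percentage points of each other in each mouse but 11w replicate 1, where FB4 stood at 15.6% and the other FB at 55.5%. These are shares of summed UMIs. The median cell of that mouse had 17.8% in FB4 and 20.2% in the other FB, so the high sum came from a part of its other FB cells. Over all mice, the median FB4 cell had 23.6%, and the medians of FB6, FB7 and FB8 were 58.4%, 77.4% and 60.3%. Mitochondrial share, a sign of RNA quality as well as of cell content, moved with this result, and its part in it was not tested.

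**Figure D4:**
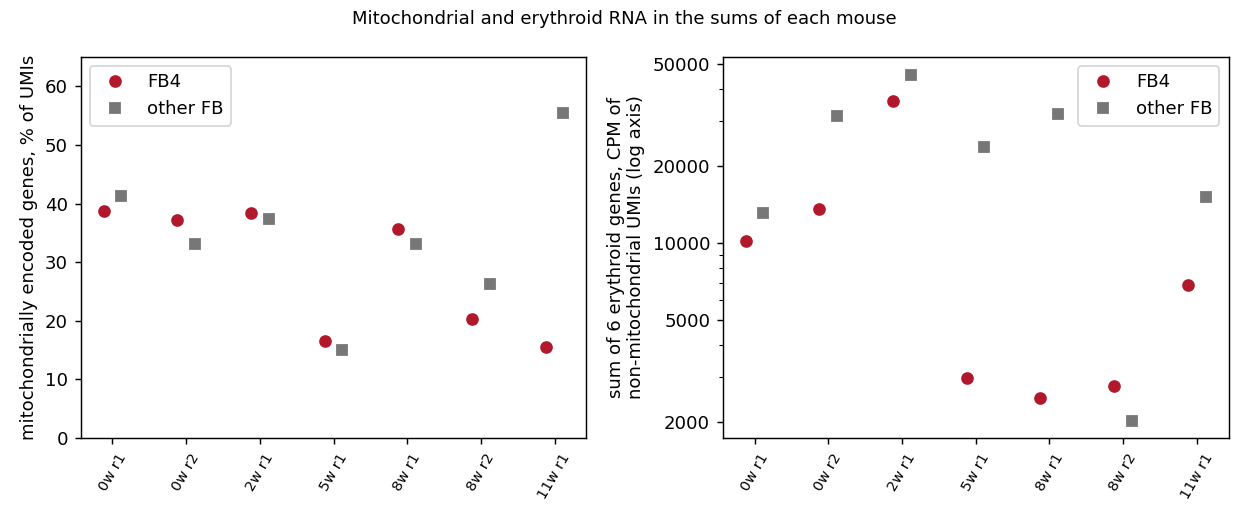
Mitochondrial share of UMIs (percent) and summed level of the erythroid list (CPM of non-mitochondrial UMIs) for each of the 7 mice, FB4 and the other FB side by side. In 11w replicate 1 the mitochondrial share is 15.6% in FB4 and 55.5% in the other FB.

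Ccl2, which attracts monocytes, had 1174, 583 and 67.4 CPM in late FB4, against 830, 320 and 1608 CPM in early FB4, and the groups overlapped. Its log2 difference was -1.98 ± 0.46 (SE; edgeR quasi-likelihood adjusted p = 0.0161), and it rested on the low value of 11w replicate 1: without that mouse it was -0.07. Ccl7, a related chemokine, had 1866, 1611 and 245 CPM in late FB4, against 817, 1868 and 2998 CPM in early FB4 (-1.62 ± 0.39, adjusted p = 0.0335), and stood at -0.15 without 11w replicate 1. With RLE factors neither call held (adjusted p = 0.112 for Ccl2 and 0.315 for Ccl7). With 1 coefficient per period in place of 1 per stage, Ccl2 stood at -0.59 and Ccl7 at -0.61.

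None of the following fibroblast genes passed this comparison (edgeR quasi-likelihood test). Postn had 79.2, 88.2 and 214 CPM in late FB4, against 29.8, 97.1 and 148 CPM in early FB4, a log2 difference of 0.46 ± 1.25. Cilp had 48.1, 142 and 113 CPM in late FB4, against 13.3, 21.6 and 495 CPM in early FB4 (0.15 ± 1.08). Col1a1 had 174, 468 and 509 CPM in late FB4, against 195, 299 and 642 CPM in early FB4 (0.02 ± 0.69). The groups overlapped in all 3 genes. Col3a1 stood at -1.07 ± 0.47, Pdgfra at -0.63 ± 0.89, Dcn at -0.17 ± 0.23, Pi16 at 0.54 ± 0.68, Tcf21 at 1.77 ± 1.25 and Meox1 at 1.96 ± 2.08.

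The fit's reach was tested on simulated counts. Of 200 genes changed by 2 on the log2 scale, 51.5% were recovered among 10992 genes, and of 200 changed by 4, 100% were recovered. The simulated spread was smaller than that of the real fit (biological coefficient of variation 1.06), and only genes with ample counts were changed. These shares therefore likely overstate what the fit could recover from the real sums. The genes of smallest p on the higher side, Zfp839, Ncapd3, Cep57l1, Asap3 and CT030684.1, did not pass (edgeR adjusted p = 0.0678 for Zfp839, 0.0779 for Ncapd3 and 0.692 for Cep57l1). Zfp839 and Ncapd3 did pass as higher under other settings, with RLE factors (adjusted p = 0.00166 and 0.00378), with DESeq2 (0.00885 and 0.000763) and without 11w replicate 1 (0.00047 and 0.00961), among others. Both were highest in 8w replicate 2, at 756 CPM for Zfp839 and 543 CPM for Ncapd3, and at most 36.8 CPM in every other mouse. Of the UMIs in FB4, 1 cell held 76.2% for Cep57l1, 41.8% for Zfp839 and 23.9% for Ncapd3.

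The second comparison set FB4 of 5w, the stage between, against the early stages. The 5w arm is 1 mouse, 5w replicate 1, whose spread is assumed to be like that of the other mice. Its plate held no FB4 cells of early mice, so plate and stage cannot be told apart here either. Of 12939 genes, 11 passed (0.085%), 1 higher (0.00773%) and 10 lower (0.0773%), with 563 at an unadjusted p under 0.05 and a median gene at 0.36. Ccl2 was the higher one, with 4830 CPM in 5w FB4 against 830, 320 and 1608 CPM in early FB4, a log2 difference of 2.33 ± 0.55 (edgeR quasi-likelihood adjusted p = 0.0267). Its call was lost without either 0w mouse (adjusted p = 0.805 without 0w replicate 1 and 0.75 without 0w replicate 2). The interferon-inducible gene Ifi27l2a (1.71 ± 0.45, adjusted p = 0.137), Ccl7 (1.49 ± 0.49) and Cxcl1, a neutrophil chemokine (1.41 ± 0.48), did not pass. The 10 lower ones were again Hba-a1 (-3.33), Hbb-bs (-3.26), mt-Rnr2 (-1.87), mt-Nd4 (-2.14), mt-Nd1, mt-Cytb, mt-Nd5, mt-Co1, Gm13340 and Gm13341. The matrix genes Mfap5 (-1.58 ± 0.52) and Mgp (-1.17 ± 0.39) and the globin gene Hba-a2 (adjusted p = 0.119) did not pass. The globin and mitochondrial calls were also unstable. With mice of at least 5 FB4 cells, which adds 5w replicate 3, Hba-a1 stood at 3.91 and Hbb-bs at 3.59, mt-Rnr2 at -0.39 and mt-Co1 at -0.25, and 0 genes passed. DESeq2 passed 0 as well, and Hba-a1 no longer passed without 0w replicate 1 (adjusted p = 0.0789), 0w replicate 2 (0.0862) or 2w replicate 1 (0.463).

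The third comparison set late FB4 against 5w FB4, and shares its mice with the first 2, so its calls are not independent of them. Of 12939 genes, 4 passed (0.0309%), all lower in late FB4, with 310 at an unadjusted p under 0.05 and a median gene at -1.05. Ccl2 had 1174, 583 and 67.4 CPM in late FB4, against 4830 CPM in 5w FB4 (log2 difference -4.31 ± 0.58, edgeR quasi-likelihood adjusted p = 9.73e-10). Ccl7 had 1866, 1611 and 245 CPM in late FB4, against 5639 CPM in 5w FB4 (-3.11 ± 0.48, adjusted p = 9.14e-07). Ifi27l2a had 1564, 1146 and 1823 CPM in late FB4, against 7652 CPM in 5w FB4 (-2.28 ± 0.45, adjusted p = 0.00126). Mt1, a metallothionein that binds zinc, had 1713, 217 and 702 CPM in late FB4, against 3842 CPM in 5w FB4 (-2.22 ± 0.50, adjusted p = 0.0348). All 3 late mice lay below the 5w mouse in each of these genes. The call of Ifi27l2a was lost without either 0w mouse (adjusted p = 0.824 and 0.745), and that of Mt1 without either 0w mouse, without 11w replicate 1 (0.441), with RLE factors (0.191) and with the replicate block (0.294).

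Of the late mice only 8w replicate 1 shared the plate of 5w replicate 1, so for the others plate and stage cannot be told apart. Within that plate, 8w replicate 1 had 1174 CPM of Ccl2, 1866 CPM of Ccl7, 1564 CPM of Ifi27l2a and 1713 CPM of Mt1, against 4830, 5639, 7652 and 3842 CPM in 5w replicate 1, all lower in the 8w mouse, with 1 mouse each and no test. Without 11w replicate 1, Ccl2 stood at -2.48 (adjusted p = 0.0723) and Ccl7 at -1.72, both no longer past the threshold, and DESeq2 passed 0 genes in this comparison. Cxcl1 (-1.94 ± 0.47, adjusted p = 0.115) did not pass, nor did the genes of smallest p on the higher side, Mgp, Ltbp2, Mmp3, Serpina3n and Postn (3.71 ± 2.12).

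**Figure D5:**
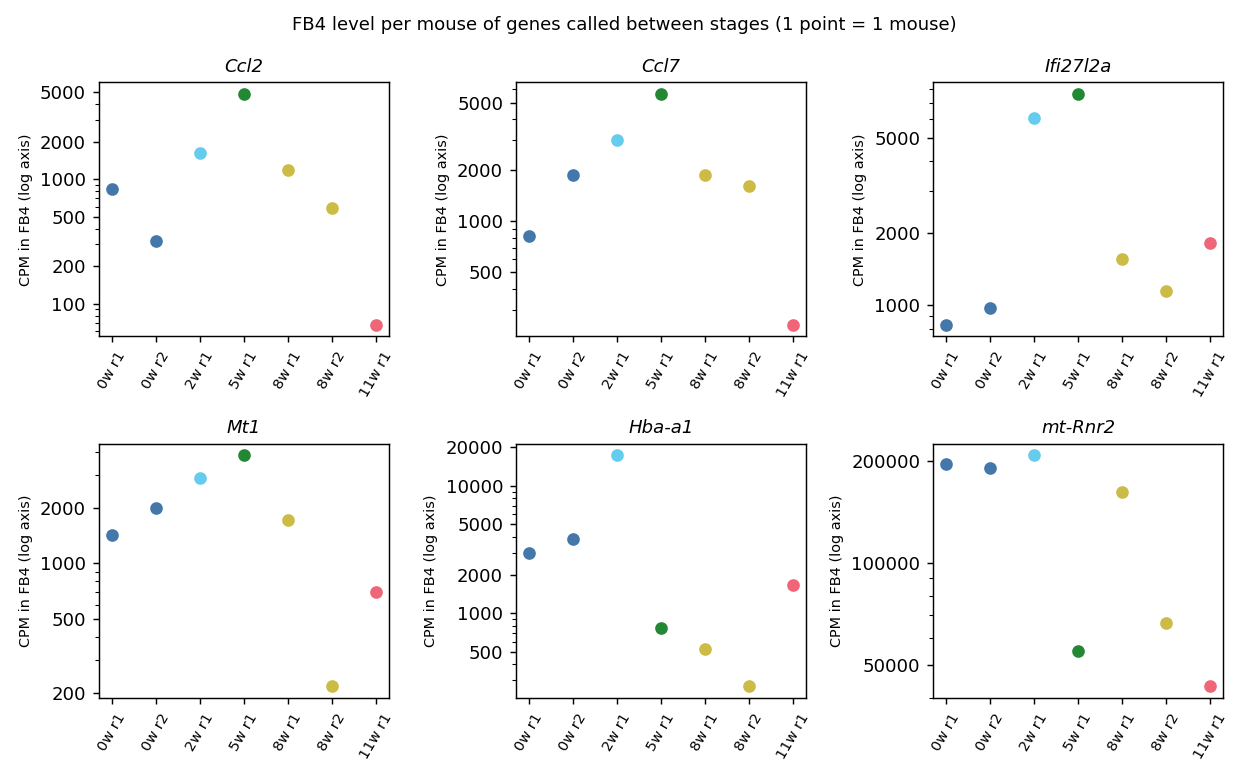
Levels of 6 genes in FB4 of each of the 7 mice, in TMM-scaled CPM on a log axis, ordered by stage. Ccl2 is highest in 5w replicate 1 (4830 CPM) and lowest in 11w replicate 1 (67.4 CPM), and Hba-a1 is highest in 2w replicate 1 (17371 CPM).

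Few members of the gene lists passed. Of 18 chemokines and inflammatory mediators tested, 2 passed as lower in late against early FB4 (Ccl2 and Ccl7, list median -0.61), 1 as higher in 5w against early (Ccl2, median 1.45) and 2 as lower in late against 5w (median -1.33). Of 5 erythroid genes tested, 3 passed as lower in late against early FB4, and of 11 metallothionein and hypoxia genes 1 (Mt1) as lower in late against 5w. Of 17 collagens, 20 resting fibroblast genes and 13 matricellular genes, 0 passed in any of the 3 comparisons. The list medians in late against early FB4 were -0.87, -0.31 and -0.08, against -0.64 over all genes.

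The last comparison asked whether FB4 changed over time differently from the other FB of the same mice, as the difference between their late minus early log2 changes. Of 16540 genes, 12 passed by edgeR's quasi-likelihood test (0.0726%), all with a lower change in FB4, with 368 at an unadjusted p under 0.05 and a median of -0.65. They were 10 mitochondrially encoded genes with Gm13340 and Gm13341. The mitochondrial ribosomal RNA gene mt-Rnr1 differed by -2.06 ± 0.16 (adjusted p = 3.61e-31), mt-Nd4 by -1.83 ± 0.18 (adjusted p = 1.77e-20) and mt-Co1 by -1.33 ± 0.27 (adjusted p = 0.00107). These rested on 11w replicate 1, where mitochondrial genes gave 15.6% of the summed UMIs in FB4 and 55.5% in the other FB, but 17.8% in the median FB4 cell and 20.2% in the median other FB cell. Without that mouse 0 genes passed, and without the cells of plates whose totals did not match the authors' UMI numbers 0 passed as well. The plate with the FB4 cells of the 11w mice held 417 FB cells, while these mice had 322 and 338 FB cells. Some of their other FB thus lay on other plates, so plate is not held constant in this contrast. The part of plate in it was not tested.

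The naming rule leaves out mitochondrially encoded, ribosomal protein and predicted genes, Gm13340 and Gm13341 among them. Of the genes it allows, Ogn, a small leucine-rich proteoglycan of the matrix, came nearest (-2.14 ± 0.54, edgeR quasi-likelihood adjusted p = 0.0925). Next on the lower side were Ccl7 (-1.35 ± 0.39, adjusted p = 0.429), Cflar, Upf3b and Myl3. Without 8w replicate 1, Ogn stood at -3.17 (adjusted p = 2.15e-07) and Ccl7 at -1.87 (adjusted p = 7.96e-06), both then past the threshold. On the higher side Ncapd3, Polr2f, Ccl8, Ifitm1 and Ipo7 did not pass, though Ncapd3 did without 8w replicate 1 (adjusted p = 0.00233) and with DESeq2 (0.0274). The summed level of Ccl2 was lower in FB4 than in the other FB of 6 of 7 mice, although its share of cells with a UMI at equal depth, given above, was not. It had 1015, 585 and 65.9 CPM in late FB4 and 1928, 4034 and 710 CPM in the late other FB, yet its change was not shown to differ (-1.56 ± 0.74). In simulated data this test recovered 1% of genes changed by 2 on the log2 scale and 95% of those changed by 4, so differences of the smaller size would mostly have been missed. The simulated spread was that used for the first comparison, again with only well-counted genes changed, so these shares may also be too high.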

How the data were processed

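Single cells were sequenced with polyadenylated RNA capture and UMIs, and the authors deposited 1 matrix of raw UMI counts, 36950 genes by 11492 cells, with a table that gives each cell's mouse, plate, cell type and subcluster. STAR 2.5.2b, featureCounts, Subread 1.4.6-p1 and the builds mm10 and GRCh37 are named, per the submitters' processing notes; how UMIs were collapsed, doublets treated and cells clustered is not given in the sources used here. No doublet caller was run.

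Counts were summed per mouse over FB4 and over the other FB, for the 7 mice with at least 10 FB4 cells. Genes passing filterByExpr were scaled by TMM and fitted by edgeR 4.0.16 (quasi-likelihood, robust, 1 coefficient per stage, 2 residual degrees of freedom; R 4.3.3), with two-sided tests and Benjamini-Hochberg adjustment over all genes. The change over time of FB4 against the other FB was fitted jointly. Differences within mice used log2 CPM with a prior count of 2. Standard errors are the log2 change over the root of F. Levels by subcluster, list sums and values per cell are CPM of non-mitochondrial UMIs, and the 34 mitochondrially encoded genes were left out of those totals. Of the FB4 cells, 376 had a non-mitochondrial total equal to the authors' UMI number, while 263 other FB cells lay on plates where totals did not match.

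Genes were named by rule: those past the threshold by size, or the 5 of smallest p per direction where few passed, the 15 highest and 10 lowest within mice, and a fixed list of fibroblast genes. Of the fixed genes, 5 with few UMIs are given as UMI counts or cell shares, and the rest with a fold only where late was set against early or FB4 against the other FB. List members are given as counts. Genes on 1 side in all 7 mice were named after their values were seen. The members, the 37 gene lists and the tests were chosen with earlier results of these data known. Alternatives were RLE factors, no filter on low counts, DESeq2 1.42.0, 5 or 20 cells per mouse, no mitochondrial genes, plates with matching totals, thinning to 2000 UMIs (1289 of 1399 other FB cells kept), each mouse left out, a replicate block and, added after seeing the data, 1 coefficient per period and sets of mice left out. Intervals are exact Clopper-Pearson at 95% and cover counting error only.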

Additional observations from a re-analysis of the deposited data

Results flagged for a closer look

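The change between 8w and 11w and 0w and 2w differed between FB4 and the other FB for 12 genes by the interaction test of edgeR's quasi-likelihood fit, which is why these results are given here. The largest were the mitochondrial genes mt-Rnr1, at -2.06 on the log2 scale, and mt-Nd4, at -1.83. The mitochondrial share of UMIs in 11w replicate 1 was 15.6% in FB4 and 55.5% in the other FB when summed, but 17.8% in the median FB4 cell and 20.2% in the median other FB cell, and without that mouse mt-Rnr1 stood at -0.52 and mt-Nd4 at -0.68, with 0 genes past the threshold. Other FB of the 11w mice lay partly on plates other than that of their FB4 cells. No explanation was tested.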

How the results depend on the processing

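The number of genes past the threshold depended on the tool, the cell minimum and single mice. For late against early FB4 it was 15, and became 25 with DESeq2 (22 higher, 3 lower, 0 shared), 0 with at least 5 cells per mouse, 25 with at least 20, 78 without both mice of the plate shared by 5w and 8w, and 8 to 132 with 1 mouse left out (132 without 8w replicate 1). For 5w against early (11) it was 3 without a filter on low counts, 0 with DESeq2, 0 with at least 5 cells, 23 with at least 20, 7 without mitochondrial genes, 4 with 1 coefficient per period, 23 without both shallow late mice (8w replicate 2 and 11w replicate 1) and 0 to 25 with 1 mouse left out. For late against 5w (4) it was 0 with DESeq2, 14 with at least 20 cells, 2 with 1 coefficient per period, 18 without the shallow mice and 1 to 17 with 1 mouse left out. For the difference of the change (12) it was 33 with DESeq2 (24 higher, 9 lower, 0 shared), 7 with at least 5 cells, 20 with at least 20, 2 without mitochondrial genes, 0 on plates with matching totals, 0 with 1 coefficient per period, 64 without the shared-plate mice, 4 without the shallow mice and 0 to 47 with 1 mouse left out. Genes on 1 side in every mouse (90) became 244 within plates, 242 without the shallow mice and 134 to 169 with 1 mouse left out, and 129 with thinned cells, of which 27 were shared. Signs turned in late against early for Dcn (0.16 with RLE factors and with DESeq2, 0.043 with at least 20 cells), Col1a1 (-0.32 with at least 20 cells, -0.050 with the replicate block, -1.20 without the shallow mice), Cilp (-0.23 with at least 20 cells, -0.81 with 1 coefficient per period, -0.95 without the shallow mice), Tcf21 (-2.78 without the shared-plate mice), Ccl2 (0.30), Pdgfra (0.11) and Postn (-0.30), the last 3 without the shallow mice. With at least 5 cells, 5w against early gave 3.59 for Hbb-bs, 3.91 for Hba-a1 and 4.23 for Hba-a2. The difference of the change turned for Ccl8 (-0.81 without the shared-plate mice) and, without the shallow mice, for Myl3 (0.42), mt-Rnr1 (0.080), mt-Rnr2 (0.12), mt-Nd1 (0.12), mt-Nd2 (0.15), mt-Co1 (0.012), mt-Nd6 (0.34), mt-Cytb (0.062), mt-Nd4l (0.47), Gm13340 (0.23) and Gm13341 (0.14). Within mice, Nid1 stood at -0.14 with thinned cells and Actc1 at 0.0033 within plates. With 1 mouse left out, signs turned for Ccl8 (-1.09 to 5.84) in the difference of the change, and in late against early for Cilp (-0.23 to 2.71), Col1a1 (-0.32 to 0.85), Col3a1 (-2.05 to 0.14), Dcn (-0.26 to 0.043), Postn (-0.16 to 1.21) and Tcf21 (-3.49 to 2.35), and within mice for Col3a1 (-0.32 to 0.16), Pdgfra (-0.31 to 0.10), Pi16 (-0.05 to 0.17) and Tcf21 (-0.999 to 0.34). The cause of these shifts was not tested. The share difference ran from -14.8 to -2.29 points with 1 mouse left out, and was -14.8 without the shared-plate mice. Its sign turned when FB4 was taken as a share of all annotated cells other than cardiomyocytes. No plate held both late and early mice, so the share difference has no value within plates. With the replicate block, 15, 10 and 3 genes passed, with 13, 8 and 3 shared; replicate numbers were not shown to pair the mice (r = -0.0045 across 12939 genes, 2 pairs). The setting without mitochondrial genes left out only mitochondrially encoded genes and kept the predicted genes Gm13340 and Gm13341. Depth limits the late arm most, since 8w replicate 2 and 11w replicate 1 hold the fewest UMIs.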

Other observations

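Interferon response genes were uneven across mice in FB4 and in the other FB alike. The 20 genes summed to 746 and 603 CPM in FB4 at 0w, 3768 CPM in 2w replicate 1, 3060 CPM in 5w replicate 1, 690 and 366 CPM at 8w and 786 CPM in 11w replicate 1. In the other FB of the same mice they summed to 653 and 816 CPM at 0w, 2255 CPM in 2w replicate 1, 3203 CPM in 5w replicate 1, 500.1 and 527 CPM at 8w and 1152 CPM in 11w replicate 1. The high values belonged to 2w replicate 1 and 5w replicate 1, and 0 of the 20 genes passed in any comparison of stages. MHC class II genes, which present antigen and are known from myeloid cells, summed to 94 to 663 CPM in FB4 and to 141 to 758 CPM in the other FB, with 4 of 7 genes positive in FB4 (median log2 difference 0.49); macrophage markers summed to 188 to 681 CPM in FB4 and to 203 to 550 CPM in the other FB, and their part in this was not tested.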
